A study of Mus musculus with 15 samples.

Results

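Immediate early genes and heat shock genes were followed across 15 bulk mRNA libraries of primary breast cancer xenografts. The set was fixed by name and holds 40 genes, 31 immediate early and 9 heat shock genes, of the 25382 genes in the count table. All 40 symbols were found in the table. The tumours grew in mice of the strain given as Nod/Skid from MDAMB231 GFP+ Luc+ cells. MDA-MB-231 is a human line of triple-negative breast cancer, and this derivative carries green fluorescent protein and luciferase. The libraries fall into tumours of weakly adherent cells, sheared at 10 dyn/cm2 (6 libraries), of strongly adherent cells, sheared at 50 dyn/cm2 (4 libraries), and of unsorted cells, which were not sheared (5 libraries). All groups share the line, the host strain and the tissue, and every tumour was broken up into loose cells before RNA was taken. No allele, drug or age of the animals is given in the labels. Each title also carries a number, and weakly adherent libraries exist for numbers 4, 5, 6, 7-8, 9 and 10, strongly adherent libraries for 4, 5, 6 and 9, and unsorted libraries for 4, 5, 6, 7-8 and 9. Neither the meaning of this number nor the animal behind each library is given. The p-values therefore cover the spread between these libraries only, part of which may be technical.

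Immediate early genes are switched on within minutes of a stimulus without new protein synthesis, through mitogen-activated kinases, serum response factor and calcium signals. Many of their products are transcription factors, and others are inhibitors that end the same signals. Heat shock genes encode chaperones, several of which are induced by heat shock factor HSF1 when proteins unfold. Both groups are known to be induced in living cells while a solid tissue is being dissociated, and both are also active in growing tumours.

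The libraries held between 30372619 and 45434799 counts. Each of the 40 genes passed the filter on low counts, which left 15190 genes to test. DUSP2 and NR4A3 were counted least, with 5 to 48 and 14 to 46 raw counts per library. Levels are given as CPM, the count of a gene relative to the library total after TMM scaling between libraries, and they are not corrected for transcript length, so levels are compared between libraries and not between genes. HSPA1A and HSPA1B encode almost the same protein from near-identical sequences, and HSPA8, HSP90AA1, DNAJA1, HSPB1 and HSPE1 have processed pseudogenes, so the counts of these genes are uncertain to the extent that reads were split between copies.

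The 3 libraries numbered 6 stood apart from the other 12. CDH1, which encodes E-cadherin and is known to be silent in MDA-MB-231, had 10 to 181 raw counts in the libraries numbered 6, against 1716 to 26110 in the other 12, whose counts go against the label on this marker. EPCAM, an epithelial surface protein, had 981 to 1649 raw counts in the libraries numbered 6, against 3726 to 22813 in the others. VIM, the mesenchymal filament protein of this line, was abundant throughout, with 240870 to 255053 raw counts in the libraries numbered 6, against 54344 to 182701 in the others. Summed over 16 striated muscle markers, the level was 320.2 to 1257 CPM in the libraries numbered 6, against 120.0 to 191.1 CPM in 11 of the others and 3080 CPM in strongly adherent library 5. In those 11 libraries the sum was mostly TNNT1 and TPM2. ACTA1 had 53.35 to 350.5 CPM in number 6, against 0.261 to 3.24 CPM in the same 11 and 864.1 CPM in strongly adherent library 5. TNNT1 and MB did not rise, with TNNT1 at 47.1 to 83.9 CPM in number 6, against 58.1 to 100.3 CPM in the others. The sum over 8 endothelial markers was 187.9 to 202.3 CPM in the libraries numbered 6, against 35.4 to 161.6 CPM in the others. It was mostly ESAM, at 162.6 to 179.7 CPM against 27.4 to 141.6 CPM, and not all its markers rose. TEK had 0.936 to 1.44 CPM in number 6, against 1.05 to 2.17 CPM in the others. The sum over 11 fibroblast markers was 769.1 to 1032 CPM in number 6, against 1103 to 2025 CPM in the others. Not all of these were lower, since COL6A3 had 285 to 396.3 CPM in number 6, against 50.2 to 305.2 CPM. The sum over 9 leukocyte and macrophage markers was 122.9 to 205.7 CPM in the libraries numbered 6, against 74.4 to 129.4 CPM in the others, and was mostly CD68, at 110.7 to 193.5 CPM against 53.2 to 110 CPM. Of the 6 markers of that list with enough counts to test, 1 was higher and 3 were lower in number 6, and PTPRC, the pan-leukocyte CD45, had 0.107 to 0.399 CPM in number 6, against 0.584 to 1.83 CPM in the others. Of the defining markers, TYROBP was at 0 in every library, CD163 had at most 1 raw count, DCN at most 7 and EMCN at most 4. The part of these differences in the results below was not tested. In bulk RNA, a larger number of expressing cells and more RNA per cell cannot be told apart.

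The immediate early genes differed between libraries mainly by title number. The standard deviation of log2 CPM over the 15 libraries had a median of 0.51 over the 31 immediate early genes and 0.27 over the 9 heat shock genes, against 0.29 over all genes tested. It lay above the upper quartile of all genes for 14 of the 31 immediate early genes and for 1 of the 9 heat shock genes, HSPA1A. FOSB had the widest range, 78.1-fold from the lowest to the highest library, followed by FOS with 64.3-fold, EGR1 with 17.6-fold, DUSP1 with 13.0-fold and BTG2 with 12.9-fold. At the other end, HSP90AA1 varied 1.27-fold and DNAJA1 1.35-fold, and their standard deviations lay at the 1.08 and the 0.948 percentile of all genes. Title number, with 6 levels, held 93.8% of the variance of log2 CPM of FOS, and adhesion class, with 3 levels, held 3.73%. The median share was 72.1% between numbers and 3.98% between adhesion classes over the immediate early genes. It was 50.4% and 4.99% over the heat shock genes, and 50.5% and 7.36% over all genes tested.

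**Figure D1:**
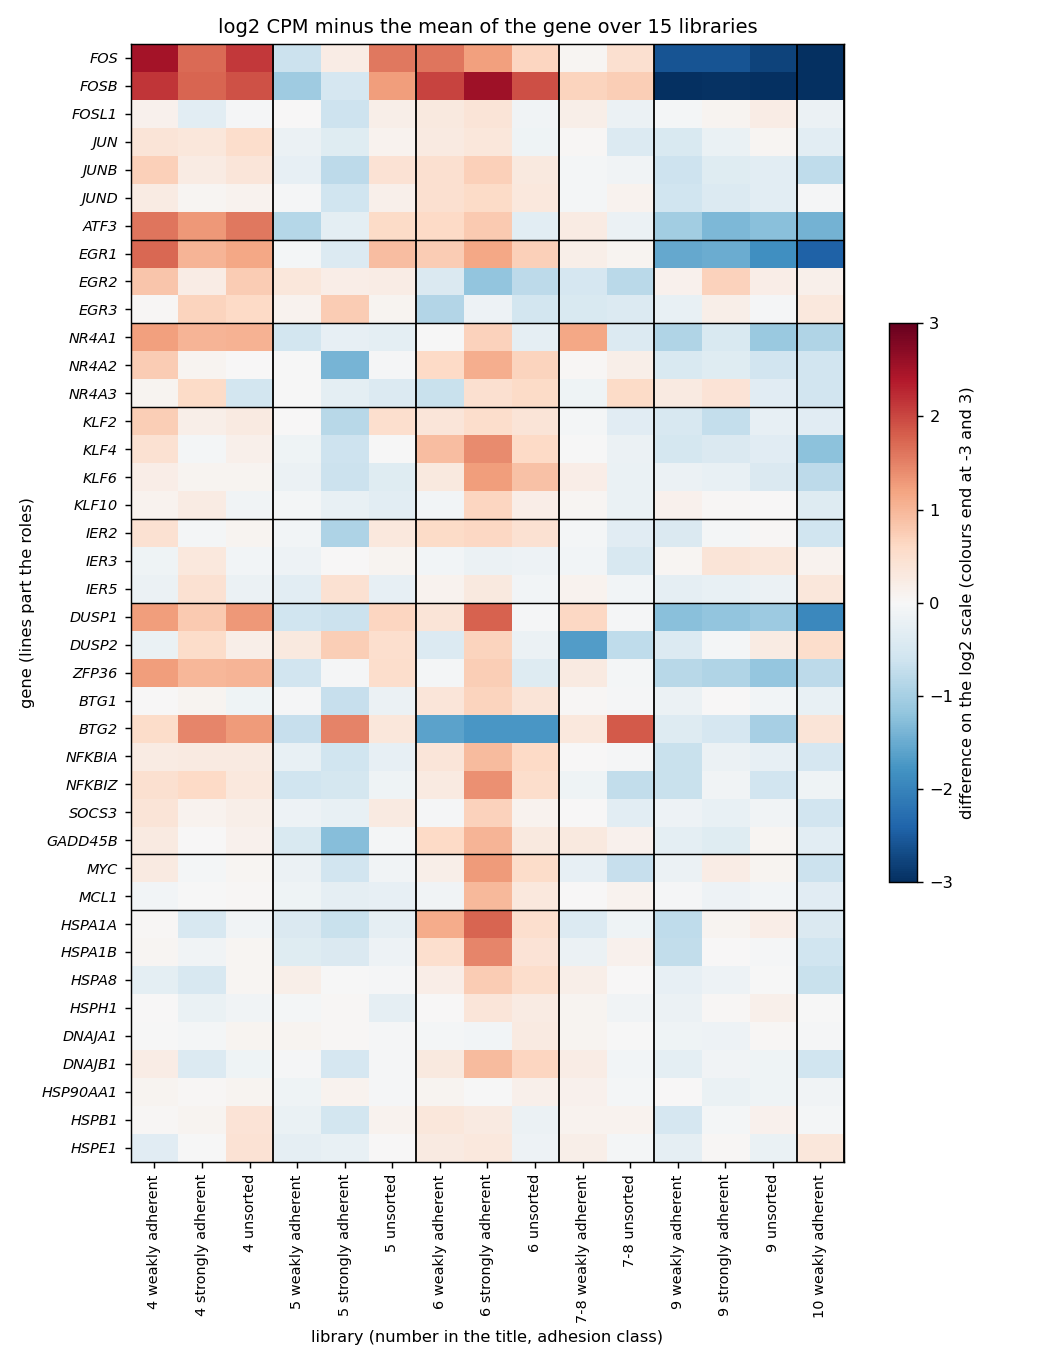
Heatmap of log2 CPM minus the mean of each gene over the 15 libraries, for the 40 genes in rows (lines part the roles) and the libraries in columns by title number, then weakly adherent, strongly adherent and unsorted. Colours end at -3 and 3. The upper rows, FOS and FOSB, are high in numbers 4 and 6 and low in numbers 9 and 10, and most heat shock rows are near 0 outside number 6.

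The share of the set that ran high in a library followed the same split. Of the 31 immediate early genes, 26, 25 and 23 were above their own 15-library median in the weakly adherent, strongly adherent and unsorted libraries numbered 4, and 21, 27 and 19 in those numbered 6. In number 9 the counts were 4, 9 and 6, in number 10 the weakly adherent library had 5, and in number 7-8 the weakly adherent and unsorted libraries had 15 and 7. Number 5 was mixed, with 3 in the weakly adherent, 8 in the strongly adherent and 19 in the unsorted library. Of the 9 heat shock genes, 7 were above their median in each library numbered 6, as in unsorted library 4 and weakly adherent library 7-8, and the counts did not follow the title number elsewhere. The weakly adherent, strongly adherent and unsorted libraries had 6, 1 and 7 in number 4, 3, 3 and 3 in number 5, and 0, 4 and 4 in number 9, the unsorted library numbered 7-8 had 3, and weakly adherent library 10 had 1.

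The dimeric factor AP-1 is built from FOS and JUN family proteins, and of its members in the set FOS and FOSB varied most between libraries. FOS measured 337, 196 and 261.1 CPM in the weakly adherent, strongly adherent and unsorted libraries numbered 4, and 38.5, 70.3 and 180.1 CPM in the same order in those numbered 5. In number 6 the weakly adherent, strongly adherent and unsorted libraries had 182, 141 and 93.6 CPM, and in number 7-8 the weakly adherent and unsorted libraries had 62.9 and 84.2 CPM. The lowest FOS levels were in number 9, with 9.89, 10.0 and 8.69 CPM in the weakly adherent, strongly adherent and unsorted libraries, and in weakly adherent library 10, with 5.24 CPM. The 4 libraries numbered 9 and 10 thus lay below all 11 others, and the 3 libraries numbered 4 above all 12 others, whatever their adhesion class.

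FOSB, a close relative of FOS, had the same low libraries, with 2.95, 3.99 and 3.09 CPM in the weakly adherent, strongly adherent and unsorted libraries numbered 9 and 2.35 CPM in weakly adherent library 10. Its weakly adherent, strongly adherent and unsorted libraries had 128.2, 183.4 and 120.1 CPM in number 6 and 140.2, 105.9 and 119.1 CPM in number 4. Number 5 again spread widely for FOSB, with 15.1, 22.1 and 75.7 CPM in the weakly adherent, strongly adherent and unsorted libraries, and number 7-8 had 49.9 CPM in the weakly adherent and 53.0 CPM in the unsorted library. ATF3, a stress-induced partner of AP-1 proteins, was at 60.1, 48.6 and 59.0 CPM in the weakly adherent, strongly adherent and unsorted libraries numbered 4, all above the other 12 libraries. In the same class order ATF3 had 10.9, 16.1 and 29.1 CPM in number 5, 29.9, 34.0 and 15.7 CPM in number 6, and 9.54, 7.69 and 8.20 CPM in number 9. It had 23.2 and 17.4 CPM in the weakly adherent and unsorted libraries numbered 7-8 and 7.29 CPM in weakly adherent library 10. The remaining AP-1 subunits varied less. JUN ranged 1.96-fold over the libraries, FOSL1 2.01-fold, JUND 2.24-fold and JUNB 2.83-fold.

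**Figure D2:**
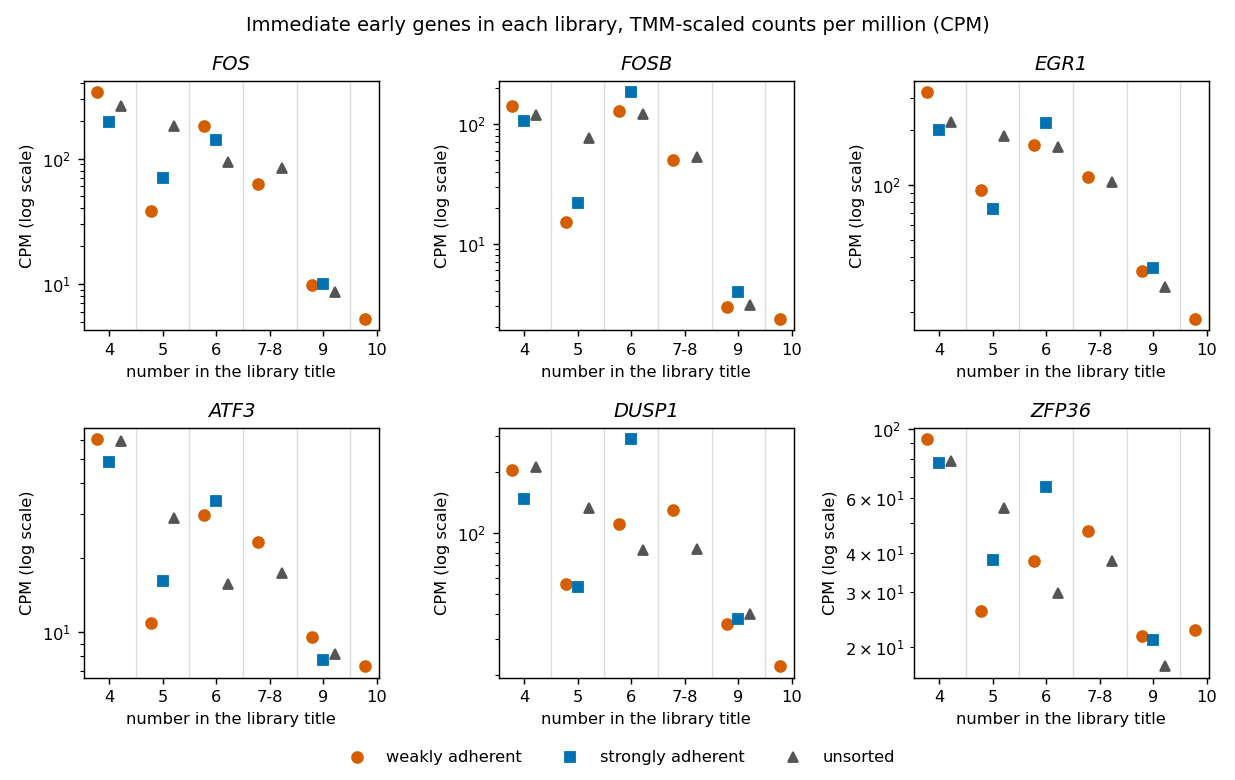
CPM on a log scale of FOS, FOSB, EGR1, ATF3, DUSP1 and ZFP36 in each of the 15 libraries, by the number in the library title, with symbols for the adhesion class. The libraries numbered 9 and 10 lie at the bottom of each panel (FOS at 5.24 to 10.0 CPM). The libraries numbered 4 lie above all others for FOS, ATF3 and ZFP36. The adhesion classes overlap each other in every panel.

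EGR1, a zinc finger factor induced through serum response factor, had the same low libraries as FOS. It measured 321.8, 199.3 and 220.4 CPM in the weakly adherent, strongly adherent and unsorted libraries numbered 4, and 94.0, 73.6 and 185.6 CPM in those numbered 5. In number 6 the same classes had 166, 219.6 and 161 CPM, and in number 7-8 the weakly adherent and unsorted libraries had 110.2 and 103.9 CPM. Its low libraries were again those of number 9, with 33.8, 34.9 and 27.3 CPM, and weakly adherent library 10, with 18.3 CPM. Its relatives EGR2 and EGR3 were counted rarely, at 0.936 to 3.96 CPM and 1.35 to 4.33 CPM, and did not share these low libraries. Both averaged highest in number 4, at 3.41 and 3.53 CPM. Weakly adherent library 10 had 2.43 CPM of EGR2. This was close to the 2.54 CPM of strongly adherent library 4 and below the 3.96 and 3.74 CPM of weakly adherent and unsorted library 4. The same library 10 had 3.17 CPM of EGR3, within the 2.63 to 4.06 CPM of the libraries numbered 4.

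The NR4A orphan nuclear receptors were low. NR4A1 had 6.38, 5.49 and 5.57 CPM in the weakly adherent, strongly adherent and unsorted libraries numbered 4, 1.81, 2.25 and 2.18 CPM in those numbered 5, and 2.64, 4.36 and 2.21 CPM in those numbered 6. It had 5.99 and 1.98 CPM in the weakly adherent and unsorted libraries numbered 7-8, 1.40, 1.93 and 1.21 CPM in number 9 and 1.39 CPM in weakly adherent library 10. The weakly adherent library numbered 7-8 thus reached the level of number 4, and its unsorted partner did not. NR4A2 ranged from 4.04 to 22.9 CPM, with its 3 libraries numbered 6 at 16.2, 22.9 and 17.1 CPM, and NR4A3 from 0.430 to 1.09 CPM.

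The Krüppel-like factors include regulators of epithelial and vascular cell state, and KLF4 and KLF6 were highest in the libraries numbered 6. KLF4 had 178.7, 250.9 and 142.5 CPM in the weakly adherent, strongly adherent and unsorted libraries numbered 6, against 40.2 CPM in weakly adherent library 10 and 61.0 to 128 CPM in the other 11. Among those, number 4 had 128, 90.6 and 104.3 CPM in the same class order, number 5 had 85.8, 61.0 and 93.7 CPM, number 9 had 65.0, 69.1 and 73.8 CPM, and number 7-8 had 93.8 CPM in the weakly adherent and 82.7 CPM in the unsorted library. KLF6 had 462.3, 902.1 and 698.3 CPM in the weakly adherent, strongly adherent and unsorted libraries numbered 6, against 220.2 to 436.7 CPM in the other 12. The 3 libraries numbered 6 lay above all others for both genes. KLF2, highest in weakly adherent library 4 at 99.3 CPM, ranged 2.96-fold, and KLF10 2.03-fold. Of the IER genes, small immediate early regulators, IER2 ranged 2.92-fold, IER3 1.83-fold and IER5, which takes part in HSF1 regulation, 1.73-fold.

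The feedback inhibitors fell into different patterns. ZFP36, which binds AU-rich mRNA and speeds its decay, was highest in number 4, with 92.5, 78.0 and 78.9 CPM in the weakly adherent, strongly adherent and unsorted libraries numbered 4, and 21.7, 21.0 and 17.4 CPM in those numbered 9. It had 26.2, 38.1 and 55.9 CPM in number 5, 37.7, 65.1 and 29.9 CPM in number 6, 47.2 and 37.6 CPM in the weakly adherent and unsorted libraries numbered 7-8, and 22.7 CPM in weakly adherent library 10. DUSP1, a phosphatase of mitogen-activated kinases, ranged from 22.1 CPM in weakly adherent library 10 to 288.3 CPM in strongly adherent library 6, and the libraries numbered 4 had 203.2, 146.8 and 211.1 CPM. NFKBIA, the inhibitor of NF-kappaB, had 141.3, 210.8 and 165.3 CPM in the weakly adherent, strongly adherent and unsorted libraries numbered 6, above all 12 others, which had 69.5 to 133.1 CPM. BTG2, an antiproliferative gene also induced by p53, went the other way: the weakly adherent, strongly adherent and unsorted libraries numbered 6 had 0.645, 0.588 and 0.585 CPM, against 1.02 to 7.56 CPM in the other 12. Outside number 6, BTG2 also differed within a number, with 1.27, 5.93 and 2.66 CPM in the weakly adherent, strongly adherent and unsorted libraries numbered 5 and 2.60 CPM in the weakly adherent against 7.56 CPM in the unsorted library numbered 7-8. The other inhibitors ranged from 2.40-fold for SOCS3 and 2.58-fold for BTG1 to 4.34-fold for NFKBIZ, 4.87-fold for GADD45B and 6.91-fold for DUSP2. The growth factor target MYC and the survival gene MCL1 were highest in strongly adherent library 6, at 315 and 937.1 CPM, against 79.3 to 189.7 CPM and 372.4 to 590.5 CPM in the other 14 libraries.

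HSPA1A, HSPA1B, HSPA8 and DNAJB1 set the libraries numbered 6 apart from the others, and the other 5 heat shock genes did not. HSPA1A, the classic stress-inducible HSP70, had 58.5, 90.5 and 38.5 CPM in the weakly adherent, strongly adherent and unsorted libraries numbered 6. It had 27.5, 19.2 and 25.0 CPM in number 4, 20.02, 17.0 and 22.2 CPM in number 5 and 15.9, 28.6 and 31.1 CPM in number 9, in the same class order. The weakly adherent and unsorted libraries numbered 7-8 had 20.3 and 24.8 CPM of HSPA1A, and weakly adherent library 10 had 19.9 CPM. Every library numbered 6 was thus above all 12 others, and numbers 4 and 9, which lay at opposite ends for FOS, overlapped. HSPA1B, its near-identical copy, had 126.8, 247.7 and 120.2 CPM in the weakly adherent, strongly adherent and unsorted libraries numbered 6, against 54.0 to 97.9 CPM in the others. Summed over the pair, the levels were 185.3, 338.2 and 158.7 CPM in number 6, against 70.0 to 122.7 CPM in the others. This sum does not depend on how reads were split between the copies, but any reads left uncounted because they match both are missing from it.

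The constitutive HSP70 HSPA8 and the HSP40 co-chaperone DNAJB1 showed the same order with smaller steps. HSPA8 had 1509, 2195 and 1895 CPM in the weakly adherent, strongly adherent and unsorted libraries numbered 6, against 825.5 to 1466 CPM in the others. DNAJB1 had 339.4, 540.9 and 433.0 CPM in the weakly adherent, strongly adherent and unsorted libraries numbered 6, against 183 to 326.6 CPM in the others. For both, the lowest of the libraries numbered 6 was only just above the highest of the rest. The HSP110 gene HSPH1 ranged 1.54-fold, the HSP90 gene HSP90AA1 and the HSP40 gene DNAJA1 as given above, the small heat shock gene HSPB1 1.94-fold and the mitochondrial co-chaperonin gene HSPE1 1.72-fold. The readthrough transcript HSPE1-MOB4 was listed at 0 in all libraries.

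**Figure D3:**
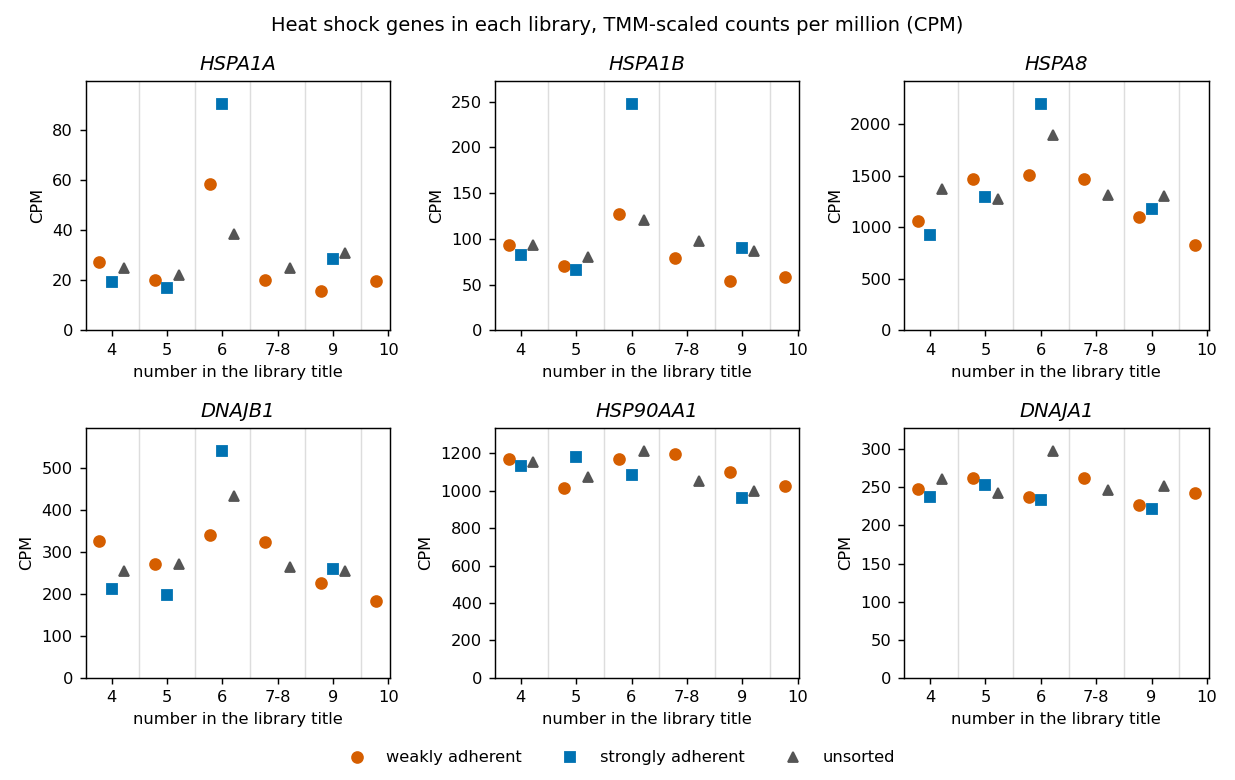
CPM on an axis from 0 of HSPA1A, HSPA1B, HSPA8, DNAJB1, HSP90AA1 and DNAJA1 in each library, by title number, with symbols for the adhesion class. The 3 libraries numbered 6 are the highest for the first 4 genes (HSPA1A at 38.5 to 90.5 CPM), while HSP90AA1 and DNAJA1 are nearly level.

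In edgeR's quasi-likelihood test for any difference among the 6 title numbers, with adhesion class as a further term, 14 of the 40 genes passed an adjusted p of 0.05 (Benjamini-Hochberg over the 15190 genes), against 7.9% of all genes tested. They were 12 of the 31 immediate early genes and 2 of the 9 heat shock genes. The lowest adjusted p was that of EGR1 (F = 24.2, adjusted p = 0.00306), followed by FOSB (F = 25.6, 0.0056), KLF4 (F = 16, 0.00565), FOS (F = 19.9, 0.00871) and ATF3 (F = 14.4, 0.00969). NFKBIA, BTG2, KLF6, ZFP36, NR4A1, NFKBIZ and EGR2 also passed, with adjusted p between 0.011 and 0.0465, as did HSPA1A (0.0299) and HSPA1B (0.037). At an unadjusted p of 0.05, 27 of the 40 passed, and no share of all genes at that cut is given for this fit. With each library left out in turn, the genes under that cut ranged from 2925 of 15331 to 4241 of 15154. These were the fits without strongly adherent library 6 and without weakly adherent library 6. DESeq2 on all libraries called 27 of the 40, against 20.5% of all genes.

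The calls depended on which libraries entered the fit. Without the 3 libraries numbered 6, none of the 40 genes and 3 of 15255 genes (0.0197%) passed in edgeR. In this edgeR fit EGR1 and ATF3 had an adjusted p of 0.069 and FOS and FOSB of 0.114, with F statistics of 28.5, 25.8, 26.3 and 25.1. HSPA1A had an F of 0.723 (adjusted p = 0.791). Leaving out 1 library gave 8 genes of the set without unsorted library 4, 9 without strongly adherent library 6 or without unsorted library 9, and up to 21 without strongly adherent library 5, with 2.52% to 10.6% of all genes passing in these fits. EGR1, FOSB, KLF4, FOS, ATF3 and NFKBIA kept their calls in all 15 of these fits. KLF6 and BTG2 lost theirs without strongly adherent or unsorted library 6, ZFP36 and NR4A1 without weakly adherent library 4, unsorted library 4 or unsorted library 9. HSPA1A lost it without weakly adherent library 6 or 7-8, strongly adherent library 6 or 9, or unsorted library 4 or 5.

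Setting the libraries numbered 6 against the mean of the other numbers, 24 of the 40 genes passed, against 27.9% of all genes tested. Of these, 21 were higher in number 6, against 11.6% of all genes, and 3 were lower, against 16.4%. By group they were 20 of the 31 immediate early genes (17 higher, 3 lower) and 4 of the 9 heat shock genes, all higher. FOSB was higher by 3.0025 on the log2 scale (SE 0.37, adjusted p = 0.000831), KLF4 by 1.40 (SE 0.17, 0.000241), KLF6 by 1.11 (SE 0.17, 0.000821), EGR1 by 1.39 (SE 0.24, 0.00221) and NFKBIA by 0.81 (SE 0.13, 0.00115). All 4 KLF genes were higher in this contrast, with KLF2 at 0.63 and KLF10 at 0.37, as were MYC at 0.95 and MCL1 at 0.53. Weakly adherent library 6 lay within the range of the other weakly adherent libraries for KLF2, KLF10, MYC and MCL1. It had 94.5 CPM of KLF10, against 76.8 to 110.2 CPM, and 439.1 CPM of MCL1, against 372.4 to 481.6 CPM. Strongly adherent library 6 had the highest KLF10 and MCL1 of all libraries, at 155.8 and 937.1 CPM. FOS was higher by 1.88 (SE 0.37, adjusted p = 0.00686), and this call was lost without weakly adherent library 10 (1.17, adjusted p = 0.0504). For FOS, FOSB and EGR1 the low levels of numbers 9 and 10 enter the mean of the others. FOSB in number 6, at 120.1 to 183.4 CPM, overlapped number 4, at 105.9 to 140.2 CPM. EGR1 averaged 182.2 CPM in number 6, below the 247.2 CPM of number 4. BTG2 fell by 2.42 (SE 0.43, adjusted p = 0.00186), EGR2 by 0.92 and EGR3 by 0.75.

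Among the heat shock genes in number 6, HSPA1A rose by 1.45 on the log2 scale (SE 0.24, adjusted p = 0.00156), HSPA1B by 1.01 (SE 0.18, 0.0023), DNAJB1 by 0.87 (SE 0.17, 0.00303) and HSPA8 by 0.68 (SE 0.14, 0.0048). The 5 that did not pass had log2 differences between 0.06 (DNAJA1) and 0.23 (HSPH1). The number of calls was 12 of 40 without strongly adherent library 6, where 12.9% of all genes passed. It was 17, against 16.1% of all genes, without strongly adherent libraries 5 and 6, which had muscle marker sums of 3080 and 564.5 CPM. HSPA1A remained higher by 1.11 without those libraries (adjusted p = 0.0111). The 3 libraries numbered 6 did not overlap the other 12, being higher, for 6 of the 31 immediate early genes (19.4%) and 4 of the 9 heat shock genes (44.4%), against 5.63% of all genes tested. The immediate early genes were JUND, KLF4, KLF6, IER2, BTG1 and NFKBIA.

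The libraries numbered 4 and 9 gave large differences for a few genes without a call in edgeR. In number 4 against the other numbers none of the 40 genes passed, as did 0% of all genes. FOS was at 2.95 on the log2 scale (95% interval 2.12 to 3.78), FOSB at 2.72 (1.90 to 3.53), ATF3 at 1.96 (1.38 to 2.54), EGR1 at 1.90 (1.39 to 2.40) and ZFP36 at 1.36 (0.87 to 1.84), with adjusted p between 0.0657 and 0.156. DESeq2 called 6 of the 40, these 5 among them, against 0.157% of all genes. Without the adhesion term edgeR called FOS, FOSB, ATF3 and EGR1, against 0.0263% of all genes. Leaving out 1 library gave up to 5 calls, with 5 without unsorted library 5, 4 without weakly adherent library 5, 3 without weakly adherent or strongly adherent library 6 and 1 without strongly adherent library 5, with at most 0.066% of all genes passing. The heat shock genes of number 4 had log2 differences between -0.21 (HSPA8) and 0.19 (HSPB1), and none reached an unadjusted p of 0.05. Of the 31 immediate early genes in number 4, 28 were above 0, with a median log2 difference of 0.398. In edgeR 17 of them reached that unadjusted cut, and no share of all genes at that cut is given beside this count. The libraries numbered 4 lay above all 12 others for FOS, JUN, ATF3 and ZFP36, 12.9% of the immediate early genes, against 0.118% of all genes.

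In number 9 against the others, FOSB was at -3.53 on the log2 scale (95% interval -4.68 to -2.37), FOS at -2.78 (-3.87 to -1.68), EGR1 at -1.63 (-2.24 to -1.01), ATF3 at -1.30 (-1.995 to -0.61) and ZFP36 at -1.12 (-1.68 to -0.56). In edgeR none of the 40 genes passed, against 0.0197% of all genes (0.0132% higher and 0.00658% lower). DESeq2 called 5 of the 40, those named, against 0.703% of all genes. FOSB, EGR1 and FOS passed in edgeR without weakly adherent library 10, the other low library, and without unsorted library 5, and fewer passed without weakly adherent library 5 (2) or strongly adherent library 5 (1), with at most 0.0991% of all genes passing. HSPA1A was at -0.13 on the log2 scale in number 9.

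Number 10, a lone library assumed to vary like the others, had FOSB at -3.89 (95% interval -5.90 to -1.87), FOS at -3.80 (-5.81 to -1.80), EGR1 at -2.65, KLF4 at -1.37 and KLF6 at -0.88 on the log2 scale. None of the 40 genes passed in edgeR, as did 0% of all genes, and DESeq2 called 5, against 2.29% of all genes. In edgeR 2 of the 40 passed without weakly adherent library 6, against 1.5% of all genes, and 2 without unsorted library 5, against 0.0132%. In numbers 5 and 7-8 none passed in either tool, against 0% and 0.0658% of all genes in edgeR and 0.586% and 0.478% in DESeq2. For number 5 the smallest p belonged to GADD45B (-0.63 on the log2 scale), NFKBIA (-0.37), FOS (1.13), NFKBIZ (-0.48) and EGR1 (0.59). For number 7-8 they belonged to BTG2 (1.37), DUSP2 (-1.53), EGR2 (-0.83), FOSB (1.19) and NR4A1 (0.79), and FOSB passed without unsorted library 5, against 0.033% of all genes. These comparisons share libraries, since each number is part of the mean that the others are set against.

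**Figure D4:**
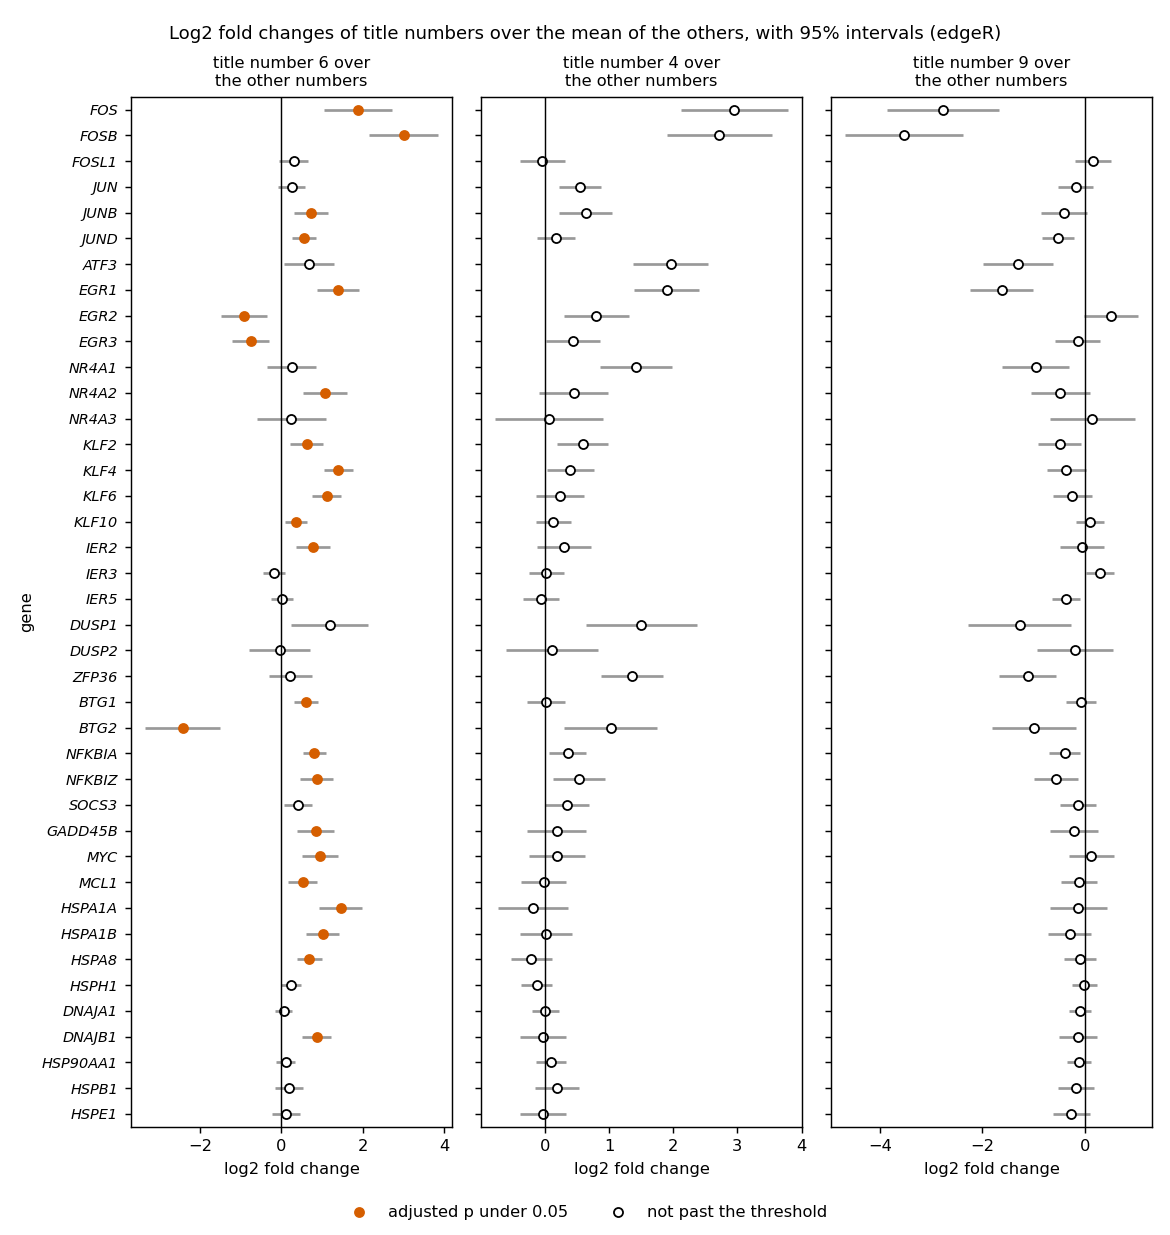
Log2 fold change with 95% interval of each of the 40 genes in number 6, number 4 and number 9 over the mean of the other title numbers (edgeR, adhesion class as a further term). Filled points passed an adjusted p of 0.05 and occur in number 6 alone, where FOSB is at 3.0025 and BTG2 at -2.42. FOS is at 2.95 in number 4 and -2.78 in number 9.

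The comparison of adhesion classes, which the groups of the study address, gave no call in the set. FOS averaged 106 ± 130.4 CPM in weakly adherent libraries (SD, n = 6), 104.2 ± 81.1 CPM in strongly adherent libraries (SD, n = 4) and 125.5 ± 97.1 CPM in unsorted libraries (SD, n = 5). The weakly adherent libraries ran from 5.24 to 337 CPM with a median of 50.7, the strongly adherent from 10.0 to 196 CPM and the unsorted from 8.69 to 261.1 CPM, so the classes overlapped over nearly their whole range. HSPA1A averaged 27.0 ± 15.9 CPM in weakly adherent, 38.8 ± 34.8 CPM in strongly adherent and 28.3 ± 6.56 CPM in unsorted libraries. In edgeR, none of the 40 genes passed in weakly over strongly adherent, weakly adherent over unsorted or strongly adherent over unsorted libraries, and neither did any of the 15190 genes (0% in each). At an unadjusted p of 0.05 there were 0, 0 and 1 of the 40 genes and 366, 81 and 572 of all genes. DESeq2 without the title number in the model called 0 genes in each.

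In weakly over strongly adherent libraries, FOS was at 0.02 on the log2 scale, with a 95% interval of -2.37 to 2.42. This fit has no term for the title number, and strongly adherent libraries lack numbers 7-8 and 10. FOS was higher in the weakly adherent library in 2 of the 4 numbers that have both. The 5 genes of smallest p were IER5 (-0.29, 95% interval -0.60 to 0.02), EGR3 (-0.55, -1.16 to 0.07), HSPA1B (-0.60, -1.30 to 0.10), DUSP2 (-0.72, -1.60 to 0.17) and MCL1 (-0.34, -0.76 to 0.08), each with an adjusted p of 1. HSPA1A was at -0.52 (-1.52 to 0.47), and was at 0.32 without strongly adherent library 6. HSPA1B was at 0.01 and MCL1 at 0.04 without that library. The genes with little spread gave tight intervals, as with DNAJA1 at 0.06 (-0.12 to 0.25). The median of the 40 log2 differences was -0.18, with 30 below 0, against -0.02 over all genes tested.

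In weakly adherent over unsorted libraries, FOS was at -0.24 (-2.49 to 1.999) and HSPA1A at -0.07 (-1.01 to 0.87) on the log2 scale. The smallest p belonged to BTG2 (-0.76), HSPA8 (-0.21), IER5 (0.14), HSPB1 (-0.15) and DNAJA1 (-0.08). The median of the 40 was -0.09, against 0.00 over all genes. In strongly adherent over unsorted libraries, FOS was at -0.27 (-2.77 to 2.23) and HSPA1A at 0.45 (-0.59 to 1.49), and HSPA1A was at -0.26 without the 3 libraries numbered 6. The median of the 40 was 0.09, against 0.02 over all genes.

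IER5 had the smallest p of the set between strongly adherent and unsorted libraries. It had 161.7, 161, 144.2 and 99.9 CPM in strongly adherent libraries 4, 5, 6 and 9, against 103.1, 98.2, 109.8, 111.2 and 103.7 CPM in unsorted libraries 4, 5, 6, 7-8 and 9. Strongly adherent library 9 was within the range of the unsorted libraries and the other 3 were above it. The log2 difference was 0.43 (95% interval 0.11 to 0.75, unadjusted p = 0.0123, adjusted p = 0.975 in edgeR), higher in 3 of the 4 numbers that have both, and it did not pass. KLF10 was at 0.28, NFKBIZ at 0.57, DNAJA1 at -0.14 and EGR3 at 0.42 in the same comparison. Each class enters a pair of these 3 comparisons, so they are not independent.

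**Figure D5:**
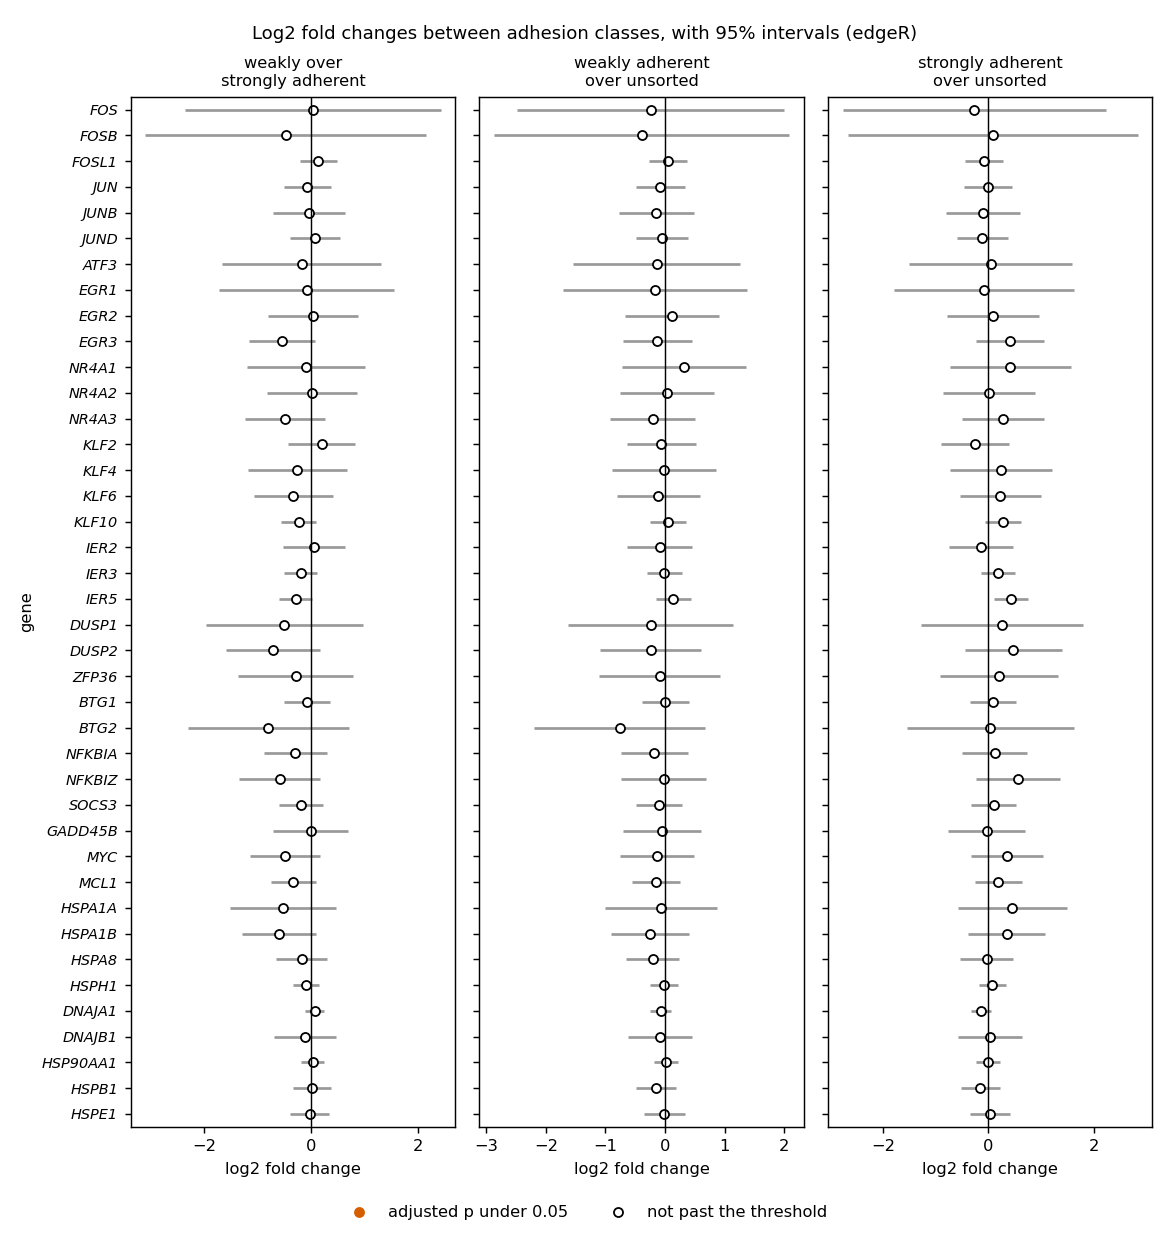
Log2 fold change with 95% interval of each of the 40 genes in weakly over strongly adherent, weakly adherent over unsorted and strongly adherent over unsorted libraries (edgeR). No gene passed an adjusted p of 0.05; the intervals are widest for FOS and FOSB (FOS from -2.37 to 2.42 in the left panel) and narrowest for genes such as DNAJA1.

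Genes of the same pathways outside the set were read from 7 lists, in which none passed in any comparison of adhesion classes. The counts stand beside 7.9% of all genes among title numbers and, in number 6 against the others, 27.9% of all genes, 11.6% higher and 16.4% lower. Among 14 further AP-1, ATF, CREB and MAF factors, none passed for any difference among title numbers and 4 passed in number 6 against the others, a share close to that of all genes. The cAMP-responsive factor CREM was higher there by 0.75 on the log2 scale (adjusted p = 0.00463), MAFF by 0.76 and ATF4, the translation-controlled stress factor, by 0.42, and the AP-1 repressor JDP2 was lower (-0.76). Among 13 regulators and targets of serum response factor, 3 passed among numbers and 8 in number 6, 6 of them higher. The matricellular genes CYR61 and CTGF were higher there by 1.10 (adjusted p = 0.000513) and 1.68 on the log2 scale, while IER5L (-1.49, adjusted p = 0.000148) and the coactivator MKL1 (-0.74) were lower.

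Among 16 kinases, phosphatases and Sprouty-type inhibitors of the mitogen-activated kinase pathway, 3 passed among numbers (7.9% of all genes) and 7 in number 6 (27.9% of all genes), of which 4 were higher (11.6% of all genes). The phosphatase DUSP5 was higher there by 1.06 on the log2 scale and the inhibitor SPRY2 by 0.76, and DUSP8 (-3.12) and DUSP16 (-0.84) were lower. Among 18 genes of NF-kappaB and stress feedback, 5 passed among numbers and 6 in number 6, all higher, against the same shares of all genes, with the kinase SGK1 at 1.35, CEBPD at 1.15, PPP1R15A at 0.68 and the NF-kappaB inhibitor TNFAIP3 at 0.67.

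None of 7 regulators of heat shock factors passed in number 6 or among numbers. The HSP90 co-chaperone PTGES3 and HSBP1, which binds HSF1, were the most counted of them, at means of 328.3 and 139.7 CPM, with log2 differences of -0.07 and -0.15 in number 6. Of the 7, 3 had an unadjusted p under 0.05 in number 6, all positive, and HSF1, named after its value was seen, was at 0.32 (adjusted p = 0.0744 in edgeR). Of 37 further cytosolic chaperones and co-chaperones, 1 passed among numbers, DNAJB6, a smaller share than the 7.9% of all genes. In number 6 there were 15, against 27.9% of all genes, of which 14 were higher, against 11.6%. They included HSP90AB1 at 0.56, DNAJB6 at 0.52, the HSP70 co-chaperone BAG3 at 0.49 and DNAJC7 at 0.36 on the log2 scale, and the 1 lower gene, named after its value was seen, was HSPB8 (-1.52). Of 8 mitochondrial and endoplasmic reticulum chaperones, 1 passed among numbers, HSPA5, the main chaperone of the endoplasmic reticulum, and 5 in number 6, with HSPA5 at 0.63 and GRPEL1 at 0.51. The 1 lower gene of this list, named after its value was seen, was the collagen chaperone SERPINH1 (-0.45).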

How the data were processed

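The labels' protocols describe 50 bp single-end reads of Illumina TruSeq stranded libraries made from dissociated tumours. The submitters' processing notes list STAR, HTSeq, cutadapt, FastQC and DESeq2, with build hg19. Versions and the use of strand in counting are not given in the sources used here, so reads of a gene and an antisense partner cannot be told apart. The authors deposited raw counts per human gene symbol, on which every test ran, and a table of log2 values, each equal to log2 of the count divided by a size factor, plus 1, to within 5.33e-14; these were not used further. The labels give the organism as mouse, and the share of reads from the host was not tested.

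Libraries were grouped by adhesion profile and by the number in the title. edgeR 4.0.16 in R 4.3.3 (TMM, filterByExpr, robust quasi-likelihood, all 15 libraries in a fit) tested adhesion class alone, or title number with adhesion class, two-sided. Adjustment was by Benjamini-Hochberg over 15190 genes holding 99.98% of the counts, with a threshold of 0.05. The biological coefficient of variation was 33.6% in the model with adhesion class alone, where differences between title numbers count as spread. Standard errors were derived from the F statistic and 95% intervals from the t distribution. The script was tested on simulated data in which every gene had the same spread and changes were planted only in well-counted genes. That checks the code under those settings and not the error rates in these data. The 40 genes, the 7 lists and the tests were chosen with earlier results of these data known. Values per library are given for FOS, HSPA1A and up to 10 genes past the threshold in a comparison, or for the 5 of smallest p where fewer than 3 pass; up to 4 genes of a list past the threshold are named by smallest p, or the 2 of highest mean CPM. DESeq2 1.42.0, DESeq2 size factors, no filter, a replicate block, fits without number 6 or without the adhesion term, and each library left out were the alternatives. DESeq2 with the block and the fit without strongly adherent libraries 5 and 6 were added after seeing the data.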

Additional observations from a re-analysis of the deposited data

Results flagged for a closer look

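Of 120 groups of values (40 genes in each of 3 adhesion classes), 12 had a library set apart from the rest of its class. The measure was the gap to the nearest library divided by the range of the class, set against Dixon's 95% critical value, which is higher for the 4 strongly adherent than for the 5 unsorted or the 6 weakly adherent libraries. Chance sets apart about 1 group in 20. Strongly adherent library 6 accounts for 4 of them: KLF4 at 250.9 CPM against 61.0 to 90.6 CPM in the other strongly adherent libraries, MCL1 at 937.1 against 392 to 471.7 CPM, HSPA1A at 90.5 against 17.0 to 28.6 CPM, and HSPA1B at 247.7 against 66.4 to 90.1 CPM. Weakly adherent library 6 was set apart for HSPA1A (58.5 against 15.9 to 27.5 CPM) and for BTG1, an antiproliferative gene (319.9 against 213.5 to 253.3 CPM). Unsorted library 6 was set apart for KLF6 (698.3 against 282.4 to 401.9 CPM), BTG1 (324.4 against 218.6 to 242.5 CPM), HSPA8 (1895 against 1268 to 1367 CPM) and DNAJB1 (433.0 against 253.6 to 271.7 CPM). The libraries numbered 4 gave the remaining pair. Weakly adherent library 4 had 92.5 CPM of ZFP36 against 21.7 to 47.2 CPM, and unsorted library 4 had 5.57 CPM of NR4A1 against 1.21 to 2.21 CPM. All 12 values were the highest of their class.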

How the results depend on the processing

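DESeq2 size factors in edgeR and no filter on low counts changed no count by over 1.5 times and no direction or call of a named gene. DESeq2 called 3329 genes (20.5%) and 27 of the 40 for any difference among title numbers (edgeR 1200, 7.9%, and 14). It called 6 of the 40 in number 4 (0.157% of all genes), 5 in number 9 (0.703%) and 5 in number 10 (2.29%), where edgeR called 0 in each. Without the adhesion term edgeR called 4 in number 4 (0.0263% of all genes). Without the 3 libraries numbered 6, 3 genes and 0 of the 40 differed among title numbers, and the sign turned for MCL1 (0.0446, against -0.34 with all libraries) and FOS (-0.00566, against 0.02) in weakly over strongly adherent libraries, and for HSPA1A (-0.26, against 0.45) in strongly adherent over unsorted libraries. Causes were not tested. Leaving out 1 library at a time, the adhesion comparisons kept 0 genes and 0 of the 40. Among title numbers 386 (without strongly adherent library 6) to 1621 genes (without strongly adherent library 5) passed; counts more than 1.5 times below 1200 were also 591 without unsorted library 6, 637 without strongly adherent library 4, 670 without unsorted library 9 and 749 without unsorted library 4. Of the 40, 8 to 21 passed there (2.52% to 10.6% of all genes) and 12 to 26 in number 6 (12.9% to 27.9%). The counts were 0 to 5 in number 4 (0% to 0.066% of all genes), 0 in number 5 (0% to 0.271%) and 0 to 1 in number 7-8 (0% to 0.594%). They were 0 to 3 in number 9 (0% to 0.0991%) and 0 to 2 in number 10 (0% to 1.5%). In these fits the sign turned for some values without a call, on the log2 scale. In weakly over strongly adherent libraries the ranges were -0.80 to 0.0115 for HSPA1B, -0.47 to 0.0365 for MCL1, -0.80 to 0.52 for FOS and -0.91 to 0.32 for HSPA1A. In weakly adherent over unsorted libraries they were -1.07 to 0.21 for FOS and -0.45 to 0.0691 for HSPA1A, and in strongly adherent over unsorted libraries -0.77 to 0.18 for FOS and -0.39 to 0.70 for HSPA1A. HSPA1A ranged from -0.43 to 0.0328 in number 4 and from -0.35 to 0.17 in number 9, and in number 7-8 NR4A1 ranged from -0.11 to 1.39 and FOS from -0.15 to 0.96.

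With the title number as a replicate block, edgeR called 0 genes and 0 of the 40 in all 3 adhesion comparisons, with 1030, 172 and 1255 genes and 4, 0 and 1 of the 40 at an unadjusted p under 0.05 in weakly over strongly adherent, weakly adherent over unsorted and strongly adherent over unsorted libraries. IER5 was then at 0.45 in strongly adherent over unsorted libraries (adjusted p = 0.561). FOS was at 0.16 with the block in weakly over strongly adherent libraries (95% interval -0.78 to 1.11, against -2.37 to 2.42 without it). The median of the 40 log2 differences in that comparison was -0.044, with 22 of 40 below 0, against -0.18 and 30 of 40 without the block. DESeq2 with the block called 35, 10 and 23 genes and 0 of the 40. The 13 pairs of libraries with the same number had correlations of their deviations from class means, across genes, of 0.028 to 0.775, with a median of 0.277. The 61 pairs of unlike number had a median of -0.013, and 9 of 14 libraries correlated best with a library of their own number. Not all 13 were over 0.1, so the main fits do not take the numbers as a pairing. Strongly adherent libraries lack numbers 7-8 and 10, so the class differences of those fits also hold differences between numbers.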
